A study of Mus musculus with 6 samples.

Results

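Eicosanoid synthesis enzymes turn arachidonic acid into leukotrienes, prostaglandins and thromboxane, and 10 of their genes were followed in alveolar macrophages, the resident phagocytes of the airspaces of the lung. The genes were taken by symbol from a table of 25664 genes: Alox5, Alox5ap, Ltc4s and Lta4h of the leukotriene branch, Alox15, the prostanoid genes Ptgs1, Ptgs2, Ptges and Tbxas1, and Hpgd, which inactivates prostaglandins. All 10 symbols were found. RNA was sequenced from macrophages sorted out of lung lavage fluid of Vav1cre/+ Pex5fl/fl mice (called Vav-Cre here, 3 libraries) and of Pex5fl/fl mice without Cre (called WT, as in the sample titles, 3 libraries). Both genotypes carry the floxed Pex5 alleles, so WT here means unrecombined and not free of loxP sites. Vav1-Cre acts in blood-forming cells and all their progeny, so it is not restricted to macrophages. The sources used here give no age or sex of the mice and do not say whether each library came from its own mouse. The p-values therefore cover the spread among these 6 samples, which may be technical.

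Arachidonic acid is cut from membrane phospholipids by phospholipase A2 enzymes. The 5-lipoxygenase encoded by Alox5 then works with its membrane partner, encoded by Alox5ap, to make leukotriene A4, which the hydrolase encoded by Lta4h turns into the chemoattractant leukotriene B4 and the synthase encoded by Ltc4s turns into the cysteinyl leukotriene C4. The cyclooxygenases encoded by Ptgs1 and Ptgs2 make prostaglandin H2, from which separate synthases make prostaglandin E2, thromboxane and the other prostanoids. Peroxisomes are the place where the side chains of prostaglandins and leukotrienes are shortened by beta-oxidation on the way to excretion, and PEX5 is the receptor that brings most enzymes into the peroxisomal matrix. Macrophages of the airspaces are known as a source of leukotrienes and thromboxane.

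Levels are CPM, that is read counts relative to the scaled size of the library, and fold changes are Vav-Cre over WT. Total counts ranged from 13325609 to 19413838 in the Vav-Cre libraries and from 14226108 to 18987200 in the WT libraries. Vav-Cre replicate 2 stood apart: its scaling factor was 1.34, against 0.90 to 1.03 in the other 5, and the 50 most abundant genes took 30.4% of its counts, against 38.3% to 42.1%. The targeted gene, Pex5, had 31.4, 36.3 and 29.6 CPM in Vav-Cre replicates 1 to 3, against 33.0, 32.1 and 29.7 CPM in WT replicates 1 to 3, a log2 fold change of 0.04 ± 0.11 (SE, adjusted p = 0.891 by edgeR's quasi-likelihood test). Counts over the whole gene include exons that a floxed allele keeps, so Pex5 does not check the genotype labels here. Of 12 alveolar macrophage marker genes all 12 were detected, with Chil3, a secreted chitinase-like protein, as the most abundant; Fabp4 rose, and Siglecf, Ear1 and Krt79 fell.

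Of the 10 genes, 8 had enough reads to be tested, and the other 2, Alox15 and Ptgs2, had almost no reads. Ptgs1 rose and Lta4h fell in Vav-Cre macrophages, and the other 6 tested genes were not called at an adjusted p under 0.05. Over all genes 358 of 11011, or 3.25%, were called, 1.74% higher and 1.51% lower. The Vav-Cre and WT libraries did not overlap for 4 of the 8 tested genes, namely Ptgs1 and Ptges above WT and Lta4h and Alox5 below it. Of all genes tested 26.1% did not overlap, 13% above WT and 13.1% below it. The median log2 fold change of the 8 was -0.11, against -0.00077 over all genes. These libraries are bulk samples, in which fewer cells of a type and less RNA per cell cannot be told apart. When library size alone set the scale, the median of all genes shifted by 0.17 on the log2 scale. All calls then split into 289 higher (2.62%) and 132 lower (1.2%), 3.82% in all, against 192 higher and 166 lower. With that scale Ptgs1 and Ptges were called higher and Hpgd lower among the 8. DESeq2 called 5 of the 10 genes, against 5.95% of all genes, and the fit with the replicate number as a block called 1, against 0.754%.

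**Figure D1:**
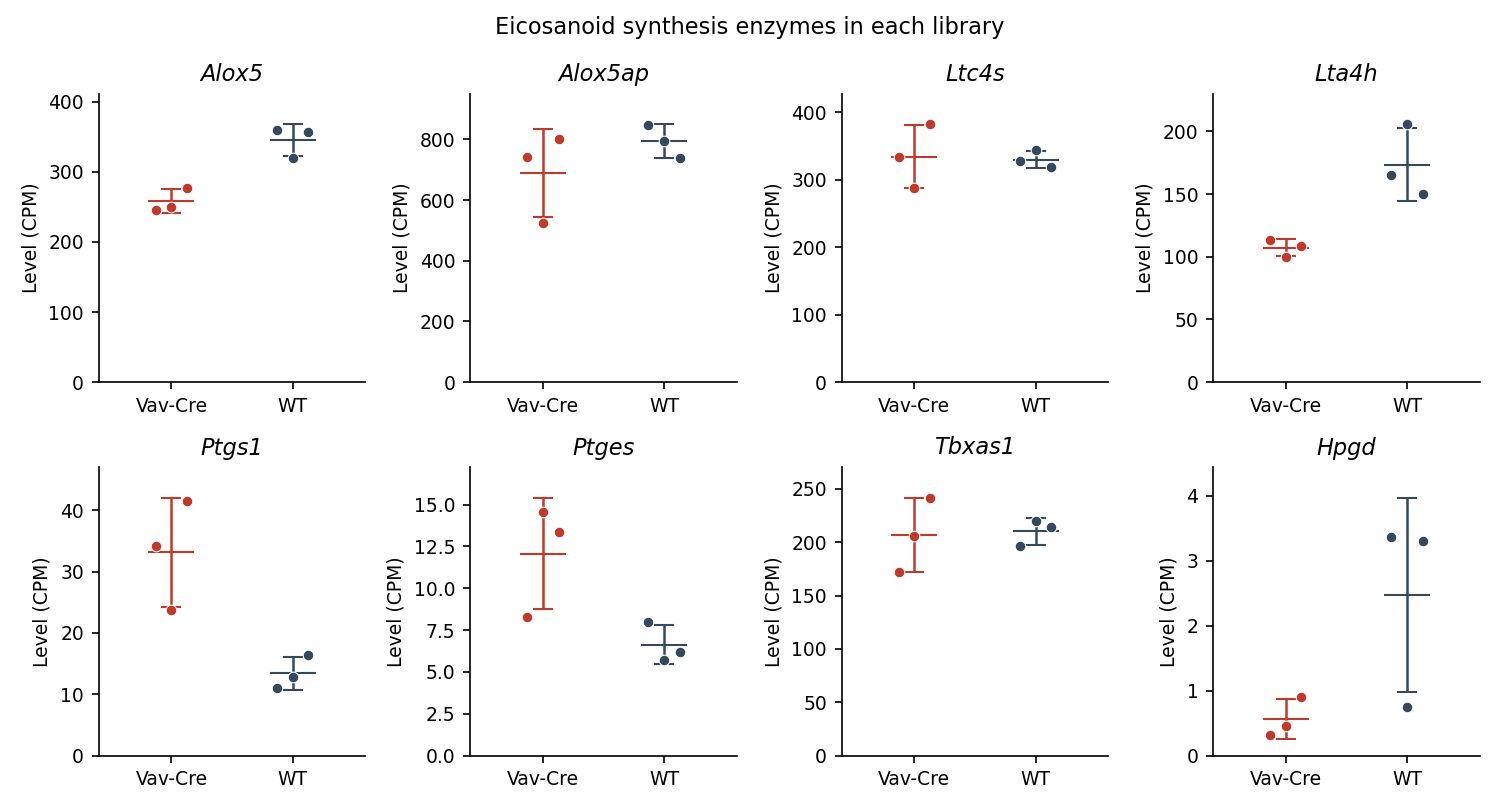
Level in CPM of the 8 tested genes in each library (points), with the mean and SD of 3 Vav-Cre and 3 WT libraries (bars); each vertical axis starts at 0 and has its own range. The Vav-Cre points lie below all WT points for Lta4h and Alox5 and above them for Ptgs1 and Ptges.

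In the leukotriene branch 1 of 4 genes fell and 0 rose. Lta4h, on chromosome 10 from 93453411 to 93484875 (GRCm38), measured 113, 100.0 and 109 CPM in Vav-Cre replicates 1 to 3, against 165, 206 and 150 CPM in WT replicates 1 to 3. Every Vav-Cre library lay below every WT library, and the Vav-Cre values were the tighter group. The means were 107 ± 6.78 CPM in Vav-Cre and 174 ± 28.8 CPM in WT (SD, n = 3 each). The level in Vav-Cre was 0.62 times that in WT, a log2 fold change of -0.70 ± 0.14 (SE, 95% interval -1.01 to -0.38, adjusted p = 0.0343 by edgeR's quasi-likelihood test). The call was lost without any 1 of the 6 libraries: the adjusted p was 0.0982, 0.0546 and 0.0771 without Vav-Cre replicate 1, 2 or 3 and 0.113, 0.0945 and 0.0548 without WT replicate 1, 2 or 3. It was also lost with scaling by library size alone (log2 fold change -0.53, adjusted p = 0.146), and was strongest with DESeq2 (0.000792).

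The promoter window of Lta4h, from 250 bases before to 50 bases after the start of the RefSeq gene (chr10:93453146-93453445, plus strand, GRCm38.p6), is shown because Lta4h was the leukotriene gene called. Capitals mark matches to any of 4 short motifs searched on both strands: the GC box GGGCGG, the TATA box TATAAA, the PU.1 core GAGGAA and TGACG, a part of the cyclic AMP response element.
Lta4h: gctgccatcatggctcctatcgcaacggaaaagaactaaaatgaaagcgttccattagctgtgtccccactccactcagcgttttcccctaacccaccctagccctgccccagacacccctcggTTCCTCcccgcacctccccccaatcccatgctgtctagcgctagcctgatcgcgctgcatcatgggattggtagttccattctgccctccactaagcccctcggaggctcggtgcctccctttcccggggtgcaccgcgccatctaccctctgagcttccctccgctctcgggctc
The window holds 16 CpG dinucleotides, against a median of 7 over all windows of the table. It holds 1 PU.1 core on the minus strand, 126 bases before the start, and no match to the other 3 motifs.

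Alox5, on chromosome 6 from 116410077 to 116461178, is the enzyme that commits arachidonic acid to leukotrienes. It measured 246, 250.3 and 277 CPM in Vav-Cre replicates 1 to 3, against 359, 319 and 357 CPM in WT replicates 1 to 3. The groups did not overlap, but the difference was not called: its log2 value was -0.42 ± 0.12 (SE, 95% interval -0.70 to -0.14, adjusted p = 0.106 by edgeR's quasi-likelihood test). DESeq2 called it (adjusted p = 0.0142), and over all alternatives the adjusted p ran from 0.0142 to 0.587.

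Alox5ap and Ltc4s are small membrane proteins of 1 family. Alox5ap, which presents arachidonic acid to 5-lipoxygenase, measured 741, 524 and 803 CPM in Vav-Cre replicates 1 to 3, against 849, 796 and 738 CPM in WT replicates 1 to 3. The lowest value was in Vav-Cre replicate 2, the library that stood apart, and the groups overlapped. Its log2 fold change was -0.20 (95% interval -0.63 to 0.23), and -0.03 without Vav-Cre replicate 2. Ltc4s measured 333, 288 and 382 CPM in Vav-Cre replicates 1 to 3, against 328, 344 and 319 CPM in WT replicates 1 to 3. The Vav-Cre libraries spanned the whole range of the WT ones, and the log2 fold change was 0.02 (95% interval -0.30 to 0.34). The sources used here do not give the strand setting of the counting. Genes on the other strand overlap 189 of 1420 exonic bases of Alox5ap and 268 of 1014 of Ltc4s, so reads of these antisense genes cannot be told apart.

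Alox15, the lipoxygenase behind lipoxin and 12-HETE synthesis in mouse peritoneal macrophages and eosinophils, had 0 reads in all 6 libraries. A count of 0 allows a level of up to 0.126 to 0.235 CPM in the Vav-Cre libraries and 0.172 to 0.235 CPM in the WT libraries, taken as 3 reads of each scaled library size and covering counting error only. No gene overlaps its exons, which lie on chromosome 11 from 70344152 to 70352031. Of the other lipoxygenase genes, Alox12, Alox12b and Alox12e were also at 0 in all libraries, and Alox8 had 1 read in WT replicate 2. Aloxe3, known from the skin barrier, was detected, at 12.2 ± 0.32 CPM in Vav-Cre and 15.1 ± 2.20 CPM in WT (log2 fold change -0.30, adjusted p = 0.297).

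In the prostanoid branch 1 of 3 tested genes rose and 0 fell. Ptgs1, the cyclooxygenase that most tissues make without a stimulus, lies on chromosome 2 from 36230426 to 36252272. It measured 34.2, 23.7 and 41.4 CPM in Vav-Cre replicates 1 to 3, against 11.1, 12.8 and 16.4 CPM in WT replicates 1 to 3. Every Vav-Cre library was above every WT library, with the lowest Vav-Cre value in replicate 2. The means were 33.1 ± 8.89 CPM in Vav-Cre and 13.4 ± 2.70 CPM in WT (SD, n = 3 each). The level in Vav-Cre was 2.45 times that in WT, a log2 fold change of 1.29 ± 0.22 (SE, 95% interval 0.79 to 1.80, adjusted p = 0.0206 by edgeR's quasi-likelihood test).

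Ptgs1 was called under each other tool, scaling, filter and the replicate block. The call was kept without Vav-Cre replicate 2 (adjusted p = 0.00667), Vav-Cre replicate 3 (adjusted p = 0.0412) or WT replicate 3 (0.0382). It was lost without Vav-Cre replicate 1 (adjusted p = 0.0793), WT replicate 1 (0.0978) or WT replicate 2 (0.0755), with log2 fold changes of 1.27, 1.18 and 1.26. The smallest adjusted p over all alternatives was 1.99e-05, by DESeq2. A predicted gene on the other strand, Gm43621, overlaps 148 of the 3884 exonic bases of Ptgs1. Its reads numbered 34, 68 and 72 in Vav-Cre replicates 1 to 3, against 13, 35 and 26 in WT replicates 1 to 3, while Ptgs1 had 437, 565 and 733 reads in Vav-Cre and 142, 224 and 243 reads in WT.

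Ptgs2, the inducible cyclooxygenase on chromosome 1 from 150100031 to 150108227, had 1 read in Vav-Cre replicate 1 and 0 in the other 5 libraries. Detected cyclooxygenase reads thus came from Ptgs1 in all libraries but for that 1 read. Ptgs2 is also an immediate early gene. The other genes of that kind were mostly detected: 11 of 12 on the list could be tested, and their summed level was 386 to 560 CPM in Vav-Cre and 396 to 561 CPM in WT. Fos was the most read. Atf3, a stress-induced transcription factor, was the gene of that list that rose, and Egr1 had 1 to 2 reads in Vav-Cre and 4 to 11 reads in WT.

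The windows of both cyclooxygenase genes are set side by side because Ptgs1 was detected and higher in Vav-Cre, and Ptgs2 was nearly absent in both genotypes. They span the same 250 bases before and 50 bases after the gene start, on the plus strand (chr2:36230176-36230475 for Ptgs1 and chr1:150099781-150100080 for Ptgs2), with the same motifs in capitals.
Ptgs1: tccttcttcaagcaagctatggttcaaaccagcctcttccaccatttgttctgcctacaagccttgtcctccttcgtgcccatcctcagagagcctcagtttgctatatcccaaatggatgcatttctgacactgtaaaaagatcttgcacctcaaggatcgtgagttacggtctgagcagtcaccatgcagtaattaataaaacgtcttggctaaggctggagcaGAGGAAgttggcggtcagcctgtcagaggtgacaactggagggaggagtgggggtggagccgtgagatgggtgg
Ptgs2: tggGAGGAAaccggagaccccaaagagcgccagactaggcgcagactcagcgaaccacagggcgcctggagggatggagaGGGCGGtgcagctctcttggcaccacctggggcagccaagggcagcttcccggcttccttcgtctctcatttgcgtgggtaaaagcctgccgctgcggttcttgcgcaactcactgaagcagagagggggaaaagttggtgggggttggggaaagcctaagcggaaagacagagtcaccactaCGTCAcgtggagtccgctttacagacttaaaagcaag
The Ptgs1 window holds 6 CpG dinucleotides and the Ptgs2 window 16. Ptgs1 has 1 PU.1 core, 24 bases before the start, and no match to the other motifs. Ptgs2 has a PU.1 core 247 bases and a GC box 170 bases before the start, and a TGACG match on the minus strand just after it.

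Ptges, the inducible synthase that makes prostaglandin E2 from the cyclooxygenase product, lies on chromosome 2 from 30889471 to 30929863. It measured 8.29, 14.5 and 13.4 CPM in Vav-Cre replicates 1 to 3, against 7.98, 5.73 and 6.21 CPM in WT replicates 1 to 3. The groups did not overlap, although Vav-Cre replicate 1 lay close to WT replicate 1. The log2 fold change of 0.88 ± 0.24 (SE, 95% interval 0.33 to 1.42) was not called (adjusted p = 0.0917 by edgeR's quasi-likelihood test), while DESeq2 (0.0211) and scaling by library size alone (0.0469) called it; over all alternatives it ran from 0.0211 to 0.265.

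Tbxas1, thromboxane A synthase, lies on chromosome 6 from 38875404 to 39084585 and was the most read prostanoid gene of the list. It measured 172, 206 and 241 CPM in Vav-Cre replicates 1 to 3, against 196, 219 and 214 CPM in WT replicates 1 to 3. The groups overlapped, and the log2 fold change was -0.03 (95% interval -0.35 to 0.30), or 0.14 with scaling by library size alone.

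Hpgd, the dehydrogenase that inactivates prostaglandin E2, lies on chromosome 8 from 56294585 to 56321043 and was scarce. It had 4, 11 and 16 reads in Vav-Cre replicates 1 to 3, against 43, 13 and 49 reads in WT replicates 1 to 3. WT replicate 2 fell among the Vav-Cre libraries, so the groups overlapped at 0.31 to 0.90 CPM in Vav-Cre and 0.74 to 3.36 CPM in WT. The log2 fold change of -2.08 ± 0.61 (SE, 95% interval -3.47 to -0.69) was not called (adjusted p = 0.111 by edgeR's quasi-likelihood test). It was called without WT replicate 2 (log2 fold change -2.54, adjusted p = 0.0357), by DESeq2 (0.0233) and with scaling by library size alone (0.0133), and reached 0.315 at most.

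**Figure D2:**
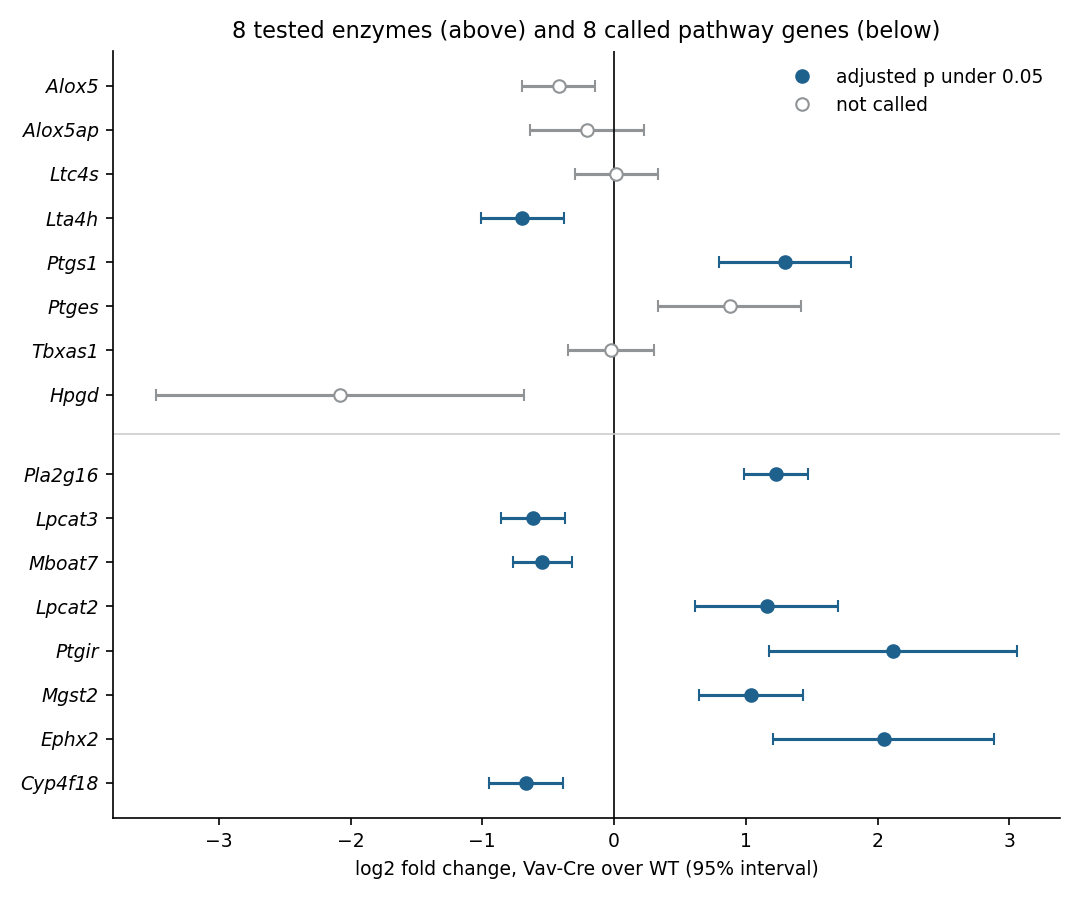
Log2 fold change, Vav-Cre over WT, with 95% intervals from 3 libraries per group, for the 8 tested enzymes (above the line) and the 8 other pathway genes called at an adjusted p under 0.05 (below it). Filled points were called; among the enzymes these are Lta4h at -0.70 and Ptgs1 at 1.29.

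Promoter windows were found in the RefSeq table for 8 of the 10 genes, all but Alox5ap and Alox15. The windows of Tbxas1 and Ptges lie at RefSeq starts well inside the GENCODE gene spans given above, so they are not at the outermost annotated start of these genes. The PU.1 core, bound in macrophages by the lineage factor PU.1, was present in all 8 windows, against 28.3% of all 32851 windows and 26.9% of the 10820 windows of tested genes. The GC box was present in 4 of 8 windows, against 35.7% of all windows and 63.0% of those of tested genes, the TATA box in 2 of 8, against 13.6% and 6.78%, and TGACG in 1 of 8, against 20.8% and 31.8%. The matches of the other 5 genes are shown with 10 bases on each side, read so that the core stands as GAGGAA, because the core was shared by called and uncalled genes.
Alox5: agatggggcaGAGGAAcaagggcttc
Ltc4s: tggcccaggaGAGGAAgagcctcggc
Ptges: gtgggaagcaGAGGAAtggaggtgtc
Tbxas1: tctttataaaGAGGAAggaagcagag
Hpgd: tgagctaagaGAGGAAaagctgaaag
These lie at chr6:116461299-116461324 (minus strand), chr11:50238501-50238526 (plus), chr2:30903431-30903456 (plus), chr6:38918957-38918982 (minus) and chr8:56294312-56294337 (minus), in GRCm38.p6. A match is a run of letters and not a measured binding site.

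Set against exon length, Alox5ap, Ltc4s and Alox5 were the most abundant genes of the list in both genotypes. Levels per kb of annotated exon averaged 485 ± 103 CPM per kb for Alox5ap in Vav-Cre and 559 ± 39.2 in WT, and 330 ± 46.5 for Ltc4s in Vav-Cre and 326 ± 12.7 in WT (SD, n = 3 each). In Vav-Cre these 2 genes overlapped, at 369 to 565 and 284 to 377 CPM per kb, and in WT they did not. Alox5 came next at 62.8 ± 4.16 CPM per kb in Vav-Cre and 84.0 ± 5.49 in WT. The next 2 places per kb were exchanged between the genotypes. In CPM Tbxas1 lay above Lta4h in every library, so the exchange depends on the exon lengths used. In Vav-Cre libraries Tbxas1 (18.9 to 26.5 CPM per kb) lay above Lta4h (16.4 to 18.6), and in WT libraries Lta4h (24.6 to 33.7) lay above Tbxas1 (21.6 to 24.1). Ptgs1 followed at 8.53 ± 2.29 CPM per kb in Vav-Cre and 3.46 ± 0.70 in WT, and Ptges at 3.07 ± 0.85 in Vav-Cre and 1.69 ± 0.30 in WT. Hpgd was last at 0.33 ± 0.18 CPM per kb in Vav-Cre and 1.47 ± 0.89 in WT, where it overlapped Ptges. The lengths count every annotated exon, so a gene with unused exons, such as one with many transcript forms, is placed too low.

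**Figure D3:**
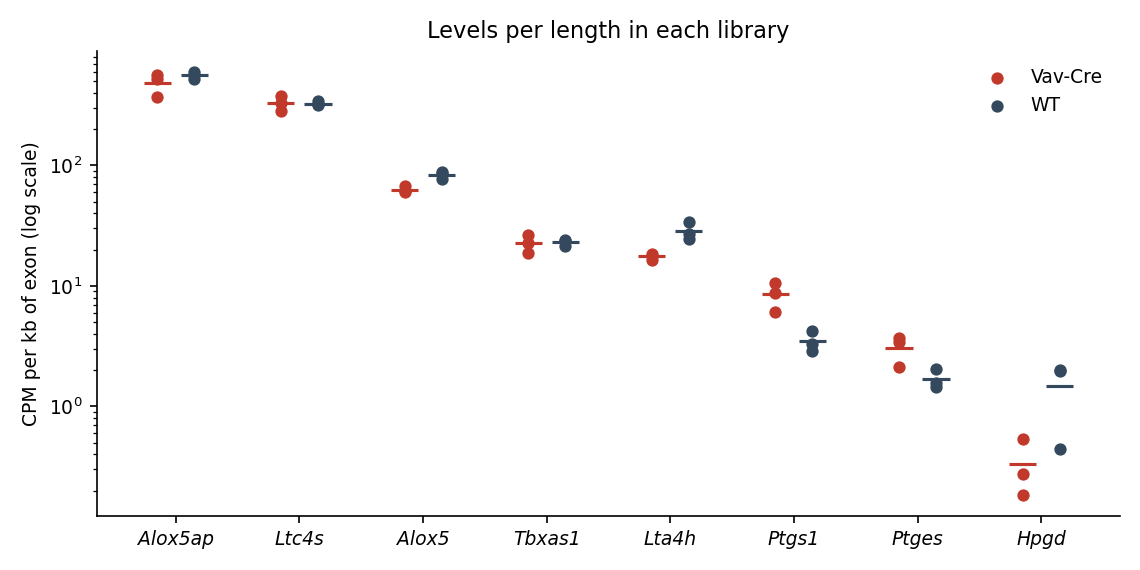
Level per kb of annotated exon, on a log scale, of the 8 tested enzymes in each of the 3 Vav-Cre and 3 WT libraries (points) with the group mean (line), ordered by the Vav-Cre mean. Tbxas1 stands above Lta4h in Vav-Cre and below it in WT.

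Ratios of reads within a library do not depend on scaling, so 5 were computed, chosen after the values above were seen. Reads of Lta4h were 34.0%, 34.7% and 28.4% of those of Ltc4s, the other enzyme that uses leukotriene A4, in Vav-Cre replicates 1 to 3, against 50.5%, 59.7% and 47.0% in WT replicates 1 to 3. No Vav-Cre ratio reached the lowest WT ratio, and the mean log2 ratio was lower by 0.69 in Vav-Cre. Reads of Lta4h against Alox5 overlapped between the groups, at 39.2% to 46.1% in Vav-Cre and 42.0% to 64.4% in WT. The mean log2 ratio was lower by 0.26 in Vav-Cre, with a two-sided exact permutation p of 0.3.

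Reads of Ptgs1 were 19.9%, 11.5% and 17.2% of those of Tbxas1 in Vav-Cre replicates 1 to 3, against 5.66%, 5.84% and 7.65% in WT replicates 1 to 3. Those of Ptges were 4.82% to 7.06% of Tbxas1 in Vav-Cre and 2.61% to 4.07% in WT. Reads of Ptgs1 were 9.49% to 14.9% of those of Alox5 in Vav-Cre and 3.09% to 4.60% in WT, a mean log2 difference of 1.70. The groups did not overlap for 4 of the 5 ratios, all but Lta4h against Alox5. The two-sided exact permutation p was 0.1 for these 4, the smallest that 3 against 3 libraries allow, and 0.125 after Benjamini-Hochberg adjustment over the 5. Since the numerators were already known not to overlap in CPM, these ratios are no separate test of those genes.

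**Figure D4:**
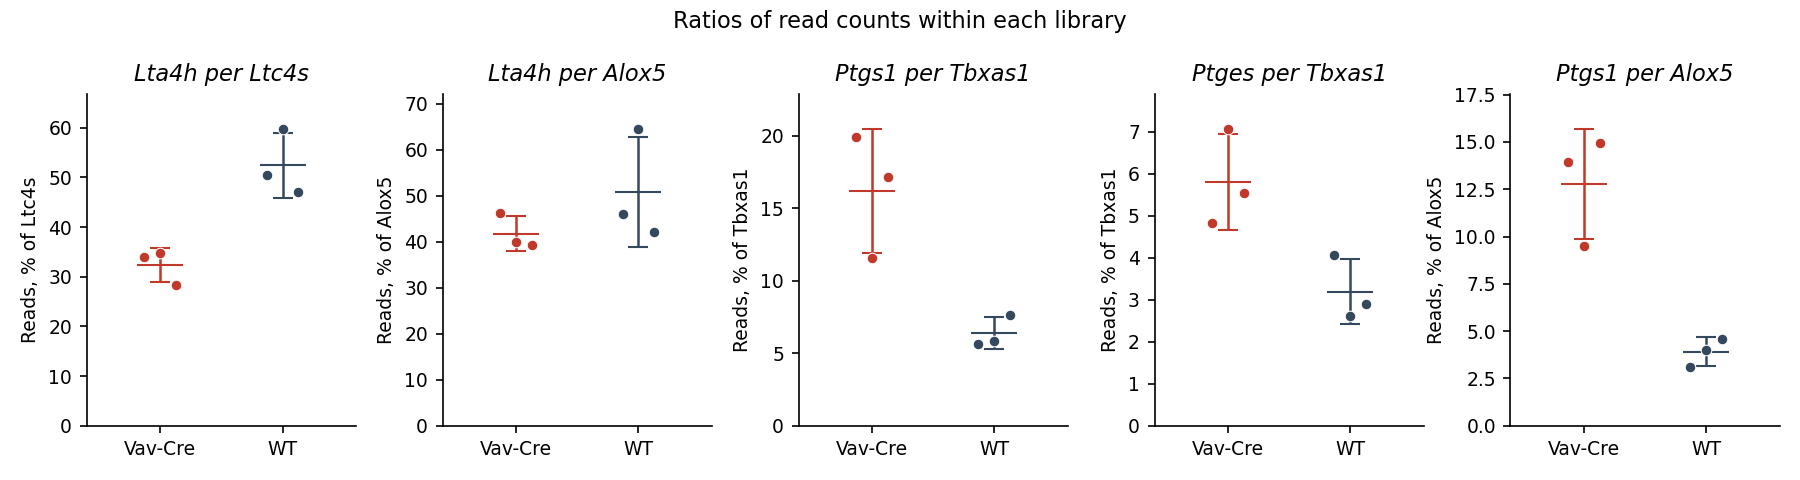
Reads of one gene as a percentage of reads of another in the same library, for 5 pairs of enzymes, with the mean and SD of 3 Vav-Cre and 3 WT libraries. Ratios of read counts depend on gene length, so only the genotypes are to be compared within a panel; they overlap for Lta4h against Alox5 and for no other pair.

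Around these enzymes, 80 further genes of the eicosanoid pathway were listed by role, of which 47 were tested. Of these 5 rose and 3 fell, or 17.0%, against the 3.25% of all genes called. The same number was called with scaling by library size alone, but as 8 higher and 0 lower, with 5 of the genes shared. The block left 1, Pla2g16. Ptgir, the receptor for prostacyclin, was among those that rose. It measured 80.1, 58.4 and 100.5 CPM in Vav-Cre replicates 1 to 3, against 11.6, 32.6 and 10.3 CPM in WT replicates 1 to 3. All Vav-Cre libraries were above all WT libraries, although WT replicate 2 had about 3 times the level of the other WT libraries. The log2 fold change was 2.12 ± 0.41 (SE, adjusted p = 0.0330 by edgeR's quasi-likelihood test), and 2.86 without WT replicate 2. The call was lost without Vav-Cre replicate 1 (adjusted p = 0.0982), Vav-Cre replicate 3 (0.0639), WT replicate 1 (0.130) or WT replicate 3 (0.0869).

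Of 17 receptors 8 were tested, and Ptgir was the one called. The prostaglandin E2 receptor genes Ptger1, Ptger2 and Ptger4, named for their place on the list, averaged 33.7, 39.9 and 26.4 CPM in Vav-Cre and 34.5, 42.2 and 17.4 CPM in WT, with log2 fold changes of -0.03, -0.08 and 0.59. Fpr2, a formyl peptide receptor that also binds lipoxin A4, had the highest receptor mean over all 6 libraries (62.7 ± 11.5 CPM in Vav-Cre and 84.8 ± 15.5 CPM in WT, log2 fold change -0.43, adjusted p = 0.211). Cysltr1, a cysteinyl leukotriene receptor, had 1.91 ± 0.05 CPM in Vav-Cre and 3.76 ± 2.17 CPM in WT (adjusted p = 0.227). The thromboxane receptor gene Tbxa2r had 0 reads in all libraries, as did Ptger3, Ptgdr and Ptgfr, and Ltb4r1, a receptor for leukotriene B4, had 1 to 3 reads in the Vav-Cre libraries and 1 to 2 in the WT libraries.

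Arachidonate release and reuptake held 4 of the 8 calls, among 12 tested genes of 24. Pla2g16, a phospholipase, rose to 56.2 ± 4.28 CPM in Vav-Cre, against 23.9 ± 1.75 CPM in WT (log2 fold change 1.23 ± 0.11, adjusted p = 0.00242), and kept its call without any 1 library. Lpcat2, an acyltransferase of platelet-activating factor synthesis, rose to 14.3 ± 2.02 CPM in Vav-Cre, against 6.36 ± 2.15 CPM in WT (1.16 ± 0.24, adjusted p = 0.0384). Lpcat3 and Mboat7, which put arachidonate back into phospholipids, fell. Lpcat3 measured 135 ± 10.2 CPM in Vav-Cre and 207 ± 7.64 CPM in WT (log2 fold change -0.62 ± 0.11), and Mboat7 63.5 ± 1.11 CPM in Vav-Cre and 92.5 ± 6.81 CPM in WT (-0.54 ± 0.10). The falls of Lpcat3 and Mboat7 were not called with scaling by library size alone (adjusted p = 0.229 and 0.479). Pla2g4a, the cytosolic phospholipase A2 that feeds eicosanoid synthesis, had 44.1 ± 8.69 CPM in Vav-Cre and 41.0 ± 4.46 CPM in WT, with a log2 fold change of 0.11 (95% interval -0.24 to 0.45). Pla2g15, a lysosomal phospholipase and the most read of the list, had a log2 fold change of -0.35 (adjusted p = 0.252). The calls lost on leaving out 1 library were those of Lpcat2 without Vav-Cre replicate 1 (0.137) or 2 (0.0614) and WT replicate 1 (0.139) or 3 (0.125), of Lpcat3 without Vav-Cre replicate 1 (0.0968) and WT replicate 1 (0.111), 2 (0.0631) or 3 (0.0986), and of Mboat7 without Vav-Cre replicate 1 (0.0891) or 3 (0.0687) and WT replicate 1 (0.103) or 3 (0.104), with adjusted p-values in parentheses. Genes on the other strand overlap 334 of 3268 exonic bases of Lpcat3, 287 of 3388 of Lpcat2 and 277 of 8339 of Mboat7, which makes these values uncertain in part.

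Among other leukotriene and lipoxygenase genes 2 of 9 tested rose and 1 fell. Mgst2, a microsomal glutathione transferase that can also make leukotriene C4, rose to 9.46, 11.2 and 9.16 CPM in Vav-Cre replicates 1 to 3, against 4.54, 4.64 and 5.33 CPM in WT replicates 1 to 3 (log2 fold change 1.04 ± 0.17, adjusted p = 0.0197). Ephx2, the soluble epoxide hydrolase that opens epoxides of arachidonic acid, was scarce in both groups and higher in every Vav-Cre library (2.29 ± 0.33 CPM, against 0.53 ± 0.25 CPM in WT, log2 fold change 2.05 ± 0.37, adjusted p = 0.0244). Cyp4f18, which inactivates leukotriene B4 in mouse neutrophils, fell to 122, 129 and 121 CPM in Vav-Cre replicates 1 to 3, against 170, 203 and 220 CPM in WT replicates 1 to 3 (-0.67 ± 0.12, adjusted p = 0.0262). Its fall was not called with scaling by library size alone (0.198). Zfp961, on the other strand, overlaps 181 of 1855 exonic bases of Cyp4f18. Gpx4, the lipid peroxide reductase that restrains lipoxygenases and the most read gene of the group, had a log2 fold change of 0.39 (adjusted p = 0.264), and 0.55 with a call without Vav-Cre replicate 2 (0.0455). Without 1 library, Mgst2 lost its call for Vav-Cre replicate 1 (adjusted p = 0.0647) and WT replicate 1 (0.0870) or 2 (0.0695), Ephx2 for Vav-Cre replicate 1 (0.0899) and WT replicate 1 (0.111) or 3 (0.10), and Cyp4f18 for Vav-Cre replicate 1 (0.101) or 3 (0.0706) and WT replicate 2 (0.0931) or 3 (0.113).

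Of 11 other tested prostanoid synthases and of 7 tested inactivation and transport genes, edgeR called 0, and 1 of each had an unadjusted p under 0.05. Akr1b8, an aldose reductase, had a log2 fold change of 1.13 (adjusted p = 0.111 by edgeR), and was called by DESeq2 (0.0287) and with scaling by library size alone (0.0369). Ptges2 (0.40) and Hpgds, the haematopoietic prostaglandin D synthase (0.58), had higher means in Vav-Cre without being called, and Mgst1, a microsomal glutathione transferase and the most read gene of this group, had -0.15. Ptgr1, a reductase that inactivates leukotriene B4 and prostaglandins, measured 61.7, 28.8 and 27.8 CPM in Vav-Cre replicates 1 to 3, against 25.7, 20.0 and 25.9 CPM in WT replicates 1 to 3 (log2 fold change 0.72, adjusted p = 0.233, or 0.0476 with scaling by library size alone), with the high value in 1 Vav-Cre library. Ptgr2 had a log2 fold change of 0.23, Cyp4f13 of -0.32 and Cyp4f16, the most read of the transport and inactivation genes, of -0.13, and none of these 3 was called.

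Several of these enzymes are also made by other blood cells, whose markers were read in the same libraries. Platelets are rich in Ptgs1 and Tbxas1. The platelet genes Ppbp, Gp9, Tubb1 and Gp6 had 0 reads in all libraries, Pf4 was the most read, and the 7 platelet markers summed to 0.23 to 0.51 CPM in Vav-Cre and 0.74 to 2.40 CPM in WT, so the sum was lower in every Vav-Cre library. Mast cells and basophils make Ltc4s, Hpgds and Ptgs1. Of their 9 markers 6 were at 0, Mcpt8, Ms4a2, Fcer1a, Mcpt4, Tpsb2 and Prss34, with Gata2 the most read over all 6 libraries, and the sum was 0 to 0.23 CPM in Vav-Cre and 0.07 to 0.31 CPM in WT. All 5 eosinophil markers, Prg2, Epx, Ccr3, Il5ra and Prg3, were at 0. Neutrophils are rich in Alox5, Alox5ap and Lta4h. Of 10 neutrophil markers S100a8 and Cxcr2 rose, and the sum was 125 to 188 CPM in Vav-Cre and 84.5 to 98.6 CPM in WT, with Mmp8 the most read over all 6 libraries. The listed genes Ly6g, S100a9, Retnlg, Mmp9 and Camp were at 0 in all libraries. S100a8 had 355, 363 and 722 reads in Vav-Cre replicates 1 to 3, against 98, 83 and 112 reads in WT replicates 1 to 3. Whether a 0 in this table means no expression or reads not assigned to the gene was not tested. Mmp8 averaged 69.3 ± 34.8 CPM in Vav-Cre and 36.9 ± 1.72 CPM in WT, without being called. Csf3r went the other way, also not called, at 28.1 ± 9.44 CPM in Vav-Cre and 40.5 ± 7.84 CPM in WT. The part of neutrophils in the results for the enzymes was not tested.

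The 12 markers of interstitial or monocyte-derived macrophages summed to 125 to 206 CPM in Vav-Cre and 361 to 457 CPM in WT, most of it Fn1, which fell. C1qc was at 0, and C1qa and C1qb had at most 3 reads in any library. The part of these markers in the results for Ptgs1 and Lta4h was not tested. Dendritic cell markers, with Zbtb46 the most read and Cd209a at 0, summed to 0.51 to 0.80 CPM in Vav-Cre and 0.68 to 0.86 CPM in WT. Lymphocyte markers, with Ms4a1 the most read and Cd3d, Cd79a, Cd79b, Nkg7 and Ncr1 at 0, summed to 0 to 0.17 CPM in Vav-Cre and 0.14 to 0.29 CPM in WT. Lung epithelium markers, with Scgb1a1 the most read, summed to 0.85 to 1.96 CPM in Vav-Cre and 2.23 to 3.21 CPM in WT. The 12 alveolar macrophage markers summed to 31823 to 72981 CPM in Vav-Cre and 44931 to 70183 CPM in WT, with 1 of them higher and 3 lower. Most of this sum was Chil3 in every library, so it says little of the other markers.

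**Figure D5:**
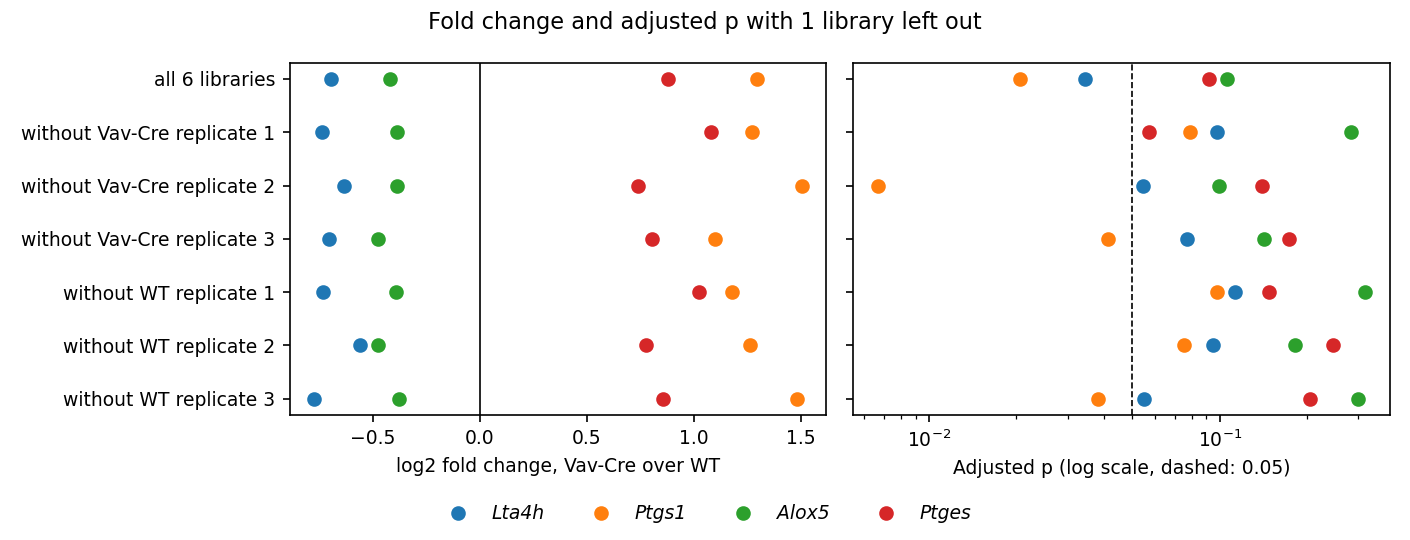
Log2 fold change, Vav-Cre over WT (left), and adjusted p on a log scale (right) of Lta4h, Ptgs1, Alox5 and Ptges with all 6 libraries and with each library left out in turn. The 4 genes keep their direction in every fit, while Ptgs1 stays under 0.05 in 3 of the 6 reduced fits and Lta4h in 0 of them.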

How the data were processed

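The authors deposited 1 table of raw read counts, 25664 gene symbols by 6 libraries, each from 50000 sorted macrophages. Per the labels' protocols, a stranded SMART-Seq kit gave the libraries, read as single ends of 100 bp. Per the submitters' processing notes, STAR, featureCounts, R 4.3.2 and DESeq2 1.40.1 were used with GRCm38.p5 and mm10. The annotation and strand setting were not given in the sources used here. The reads carry no molecular identifiers, so limits cover counting error only.

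Counts were filtered with filterByExpr (minimum count 10, minimum total 15), scaled by trimmed mean of M values and tested with edgeR 4.0.16 (glmQLFit and glmQLFTest, R 4.3.3). Tests were two-sided, and p-values were adjusted by Benjamini-Hochberg across the 11011 genes kept, with a threshold of 0.05. Every adjusted p is from this fit unless another tool is named. No libraries were near-identical. Alternatives used DESeq2 1.42.0, limma 3.58.1, other scalings and filters, each library left out, and the replicate number as a block. The steps were tested on simulated data. Gene positions and exon lengths are from GENCODE M21 (GRCm38), promoter windows from RefSeq (GRCm38.p6).

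The members, lists, motifs and ratios were chosen with earlier results of these data known. Named genes were all members, and of each pathway list those called, the 3 with the smallest p and the most read. Of each marker list they were the most read gene and genes at 0. The 5 genes most correlated with the member of smallest p were also named. Other names were chosen after their values were seen or for their place on a list. Some marker genes are not reported here.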

Additional observations from a re-analysis of the deposited data

How the results depend on the processing

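Among the enzymes 2 were called, and 5 by DESeq2 (Alox5, Ptges and Hpgd in addition), 1 with the replicate block and 0 to 1 when 1 library was left out. Among the 80 other pathway genes 8 were called, 1 with the replicate block and 1 to 8 when 1 library was left out. Over all genes 358 were called, 739 by DESeq2, 83 with the replicate block and 76 (without WT replicate 1) to 523 (without Vav-Cre replicate 2) when 1 library was left out. The other settings, limma-voom, 3 other scalings and 2 other filters, gave counts within 1.5 times of these. The cause of these shifts was not tested, and the fits with a library left out also had fewer libraries. Libraries with the same replicate number did not deviate together (correlations -0.25, -0.10 and -0.55). Of 3 Vav-Cre libraries 0 correlated best with the WT library of their own number. Deviations within groups of 3 cannot decide whether the samples were paired, and the labels do not say. With the block Ptgs1 kept its call (adjusted p = 0.0352) and Lta4h did not (0.139). Direction was reversed for 7 genes that were not called in any fit. Log2 fold changes with scaling by library size alone were 0.14 for Tbxas1, 0.035 for Cyp4f16, 0.18 for Ptger1 and 0.12 for Ptger2. With 1 library left out they were -0.15 to 0.090 for Tbxas1, -0.088 to 0.13 for Ltc4s, -0.20 to 0.11 for Ptger1, -0.19 to 0.10 for Ptger2, -0.068 to 0.22 for Pla2g4a and -0.039 to 0.10 for Pex5. Alox15, Ptgs2 and Hpgd are limited by depth: their counts show no more than an upper bound for the first pair and a wide interval for Hpgd.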

Other observations

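By a rule set for the tested enzyme with the smallest p, the genes whose log2 CPM followed Ptgs1 most closely over the 6 libraries, among 8297 candidates with a mean of at least 5 CPM, were Ogg1 (Pearson r = 0.997), Psmb4 (0.994), Cebpzos (0.994), Uqcrq (0.993) and Jtb (0.991). The libraries share the difference between the genotypes, which enters each r, and a correlation ignores the size of a change. With the group means removed the values were 0.985, 0.984, 0.966, 0.977 and 0.948. These genes were picked for their high r in the same 6 libraries, so these values are no independent support. None of the 5 was called, and their log2 fold changes, 0.28, 0.13, 0.36, 0.27 and 0.31, were far smaller than that of Ptgs1 at 1.29.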
